A study of Apocynum venetum with 18 samples.

Results

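The comparison of leaves after 48 h in salt with leaves at 0 h sets the end of a time course of Apocynum venetum against its start, and covers 6 of its 18 RNA-seq libraries. Apocynum venetum is a perennial shrub of saline and arid ground that yields bast fibre and leaves for tea. The labels also call the plant line wild P. apocinae. Each of the 6 sampling times (0, 2, 6, 12, 24 and 48 h) has 3 libraries, and every one of them, 0 h included, is labelled with a nutrient solution that contains 300 mmol/L NaCl. The design text speaks of 18 wild seedlings split into salt-treated and control plants, the control moved to a solution without NaCl, yet each label names the salt solution. Whether plants taken at 0 h had touched salt is not said. Time in salt therefore cannot be told apart from time since washing and transfer. The age of the seedlings is not given, and no label ties a library to its own plant, so a p-value here reflects library-to-library spread, which may be technical.

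Salt reaches a leaf in a pair of overlapping ways. Dissolved salt around the root first makes water harder to take up, and growth slows and stomata close within minutes to hours. Sodium and chloride then build up in the shoot over hours to days, and leaf cells that tolerate them pump sodium out or into the vacuole, make compatible solutes and remodel photosynthesis.

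The tables hold 53545 features, which are transcripts assembled without a genome and known only by an ID. Of these, 45222 passed a filter on low counts and were tested, and they are the members of the comparison. They were not chosen by their change. Because deposited annotation was not used as names, leaf marker genes could not be checked and no pathway is described. Features are described by level, by length, by on and off state and by the last digit of the ID. The total estimated count was 23588659 to 24731213 in the 48 h libraries and 17933939 to 22432087 in the 0 h libraries. The library labelled 0 h replicate 2 stood apart: its Spearman correlations across features with the other 0 h libraries were 0.880 and 0.893, against 0.940 between those. It correlated at 0.917 on average with the 3 libraries of 2 h, and that labelled 2 h replicate 2 at 0.910 with those of 0 h and at 0.892 with the other 2 h libraries. Among the 48 h libraries, replicates 1 and 2 correlated at 0.941, and replicate 3 correlated with them at 0.913 and 0.920. All 9 correlations between a 48 h and a 0 h library were lower, at 0.724 to 0.818, and the 3 highest of them were those of 48 h replicate 3.

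Leaf RNA at 48 h differed from that at 0 h in about 1 of every 3 features tested. A feature was called when edgeR's quasi-likelihood test gave a Benjamini-Hochberg adjusted p under 0.05 and the log2 change was at least 1 in size, that is, a doubling or a halving. By this rule 32.0% of tested features were called, 16.3% as rises (7388) and 15.7% as falls (7097). Among rises, 2858 changed by 1 to 2 on the log2 scale, 1678 by 2 to 3, 1646 by 3 to 5 and 1206 by 5 or more. Among falls the same size classes held 2917, 1992, 1586 and 602 features. The median SE of a called log2 change was 0.51. Leaving out replicate 2 of both 0 h and 2 h gave 8386 rises and 7441 falls. A fitted change of a feature without counts at one time depends on the prior count of the fit, so the class of 5 or more holds values that are no measured fold. A gene can be represented by more than 1 feature, so the numbers of genes behind these calls are not known.

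Most called features were separated library by library. In 50.2% of tested features the 3 libraries of 48 h all lay on one side of the 3 libraries of 0 h, above them in 25.0% and below them in 25.1%. Of the 14485 called features, 13681 (94.4%) had no such overlap and 804 did. That share follows in part from the calls themselves, which use the same libraries. A further 9004 features without overlap were not called, and the median size of their log2 change was 0.92. Replicates spread less for well-counted features than for those under 1 CPM (counts scaled to library size). Between 10 and 100 CPM the median SD of log2 CPM was 0.24 at 48 h and 0.30 at 0 h (n = 3 each). Over 100 CPM these SDs were 0.23 at 48 h and 0.36 at 0 h, and under 1 CPM they were 0.79 and 0.80.

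**Figure D1:**
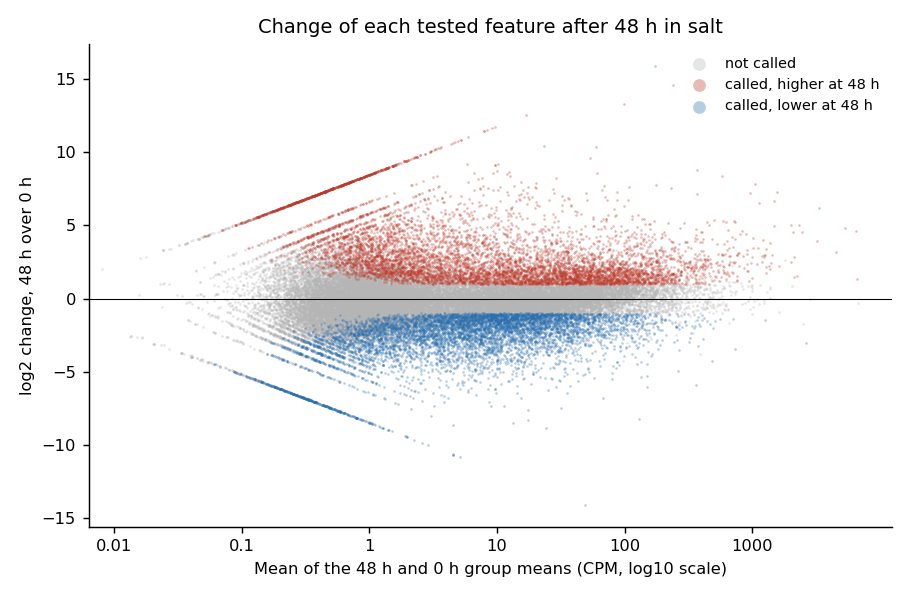
Each point is 1 tested feature, with the mean of its 48 h and 0 h group means in CPM on a log10 axis and its fitted log2 change, 48 h over 0 h, on the vertical axis. Called rises (7388) are red, called falls (7097) blue and other features grey; 22 tested features without a count in these 6 libraries are left out, and the straight bands at the left edge are features with few or no counts at one of the times.

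The balance between rises and falls is set by how libraries are scaled to each other. The main scaling, TMM (trimmed mean of M values), assumes that most features keep their level, and gave factors of 0.744 to 0.844 at 48 h and of 1.11 to 1.16 at 0 h. With library totals alone, 4891 features rose and 11310 fell, because the median log2 change of all features then moved to -0.61, against -0.10 with TMM. With DESeq2 size factors in the same fit 7610 rose and 6967 fell, and with upper-quartile factors 8145 rose and 6250 fell. Median changes of feature classes are therefore given relative to the median of all tested features, which a common scaling factor shifts but does not reorder. Counts of rises and falls in a class move with the scaling.

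RNA was concentrated in fewer features at 48 h. In each library, the top 1000 features by count held 48.5%, 48.1% and 46.9% of counts in the 48 h libraries, against 36.2%, 37.1% and 38.0% in the 0 h libraries. The top 10 held 5.89% ± 0.302 at 48 h and 3.76% ± 0.0731 at 0 h (SD, n = 3 each). It took 1088, 1115 and 1199 features to reach 50% of counts at 48 h, against 2112, 1998 and 1932 features at 0 h. Features with at least 1 CPM, taken on the library total without TMM, numbered 27026 to 28617 at 48 h, against 30187 to 31069 at 0 h. In each of these measures the groups did not overlap. The two-sided exact permutation test gave p = 0.1 for each, which is as low as 3 libraries a group can go, and 0.11 after adjustment over the 11 library measures tested. Another of the 11 measures, the number of features without a count, did overlap. It was 7032, 7003 and 5015 in the 48 h libraries, against 5752, 7437 and 5168 in the 0 h libraries.

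The features at the top of the list were largely different ones at 48 h. Ranked by mean level per kilobase of length, 34 of the 100 highest features at 48 h were also among the 100 highest at 0 h. Of the 100 highest at 48 h, 71 were called as rises and 1 as a fall, and their median rank at 0 h was 290.5. Of the 100 highest at 0 h, 26 were called as falls and 9 as rises, and their median rank at 48 h was 194. Picking features by a high level at one time favours those that are higher there, so these counts describe the lists and test nothing.

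Called rises held 51.6%, 51.1% and 46.0% of counts in the 48 h libraries, against 12.7%, 17.7% and 15.1% in the 0 h libraries. Called falls held 3.62%, 3.65% and 4.94% at 48 h, against 25.3%, 21.0% and 21.0% at 0 h. These shares follow in part from the calls themselves, which use the same libraries.

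A check on other libraries came from the contrast of 24 h with 2 h, which compares none of the 48 h or 0 h libraries. Both contrasts came from 1 fit of all 18 libraries and shared its estimates of spread. In that contrast 8.14% of tested features rose (3682) and 8.34% fell (3770) by the same rule. Of its rises, 2992 (81.3%) were also called as rises at 48 h against 0 h and 14 as falls, where 16.3% of all tested features were rises. Of its falls, 2829 (75.0%) were also called as falls at 48 h and 9 as rises, where 15.7% of all tested features were falls. Read from the other list, the shared features were 40.5% of all rises and 39.9% of all falls at 48 h. The 3682 features had a median log2 change at 48 h of 2.34 (quartiles 1.52 and 3.87), and 96.8% of them were above 0. The 3770 features had a median of -1.94 (quartiles -2.90 and -1.25), and 96.8% were below 0. The contrast of 24 h with 6 h called 17.8% of features, 7.87% as rises and 9.89% as falls, and 76.9% of its rises and 69.7% of its falls had a call of like sign at 48 h against 0 h. Little was called after 24 h: at 48 h against 24 h 0.436% of features passed, 65 as rises (0.144%) and 132 as falls (0.292%). Before adjustment the edgeR test gave p under 0.05 for 5494 of the 45222 features in that contrast. The 24 h libraries were uneven, with TMM factors of 0.866, 0.792 and 1.04. The low number of calls therefore does not show that levels stayed the same.

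The libraries labelled as replicate 2 of 0 h and of 2 h correlated better with each other's group than with their own. With both left out, the shared features were 68.1% of rises and 67.7% of falls from 2 h to 24 h, and 30.3% of rises and 33.3% of falls at 48 h. Calls of opposite sign were then more frequent. Of 3732 rises from 2 h to 24 h, 158 were called as falls at 48 h, against 14 of 3682 in the main fit. Of 3661 falls, 61 were called as rises, against 9 of 3770. The fit without both tested 46566 features and called 8386 rises and 7441 falls at 48 h.

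The same lists gave a view of how much RNA had moved. Features that rose from 2 h to 24 h held 33.3%, 33.0% and 30.4% of counts in the 48 h libraries, against 8.16%, 8.91% and 9.63% in the 0 h libraries. Features that fell from 2 h to 24 h held 2.32%, 2.38% and 3.26% at 48 h, against 12.3%, 13.4% and 11.0% at 0 h. For neither set did the 48 h and 0 h libraries overlap (exact permutation p = 0.1 each, two-sided). About 1 in 3 counts at 48 h thus fell on features picked as rising in other libraries, against fewer than 1 in 10 at 0 h. Those other libraries include the one labelled 2 h replicate 2, which correlated better with 0 h than with its own group. For these shares the lists were not redrawn without it.

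**Figure D2:**
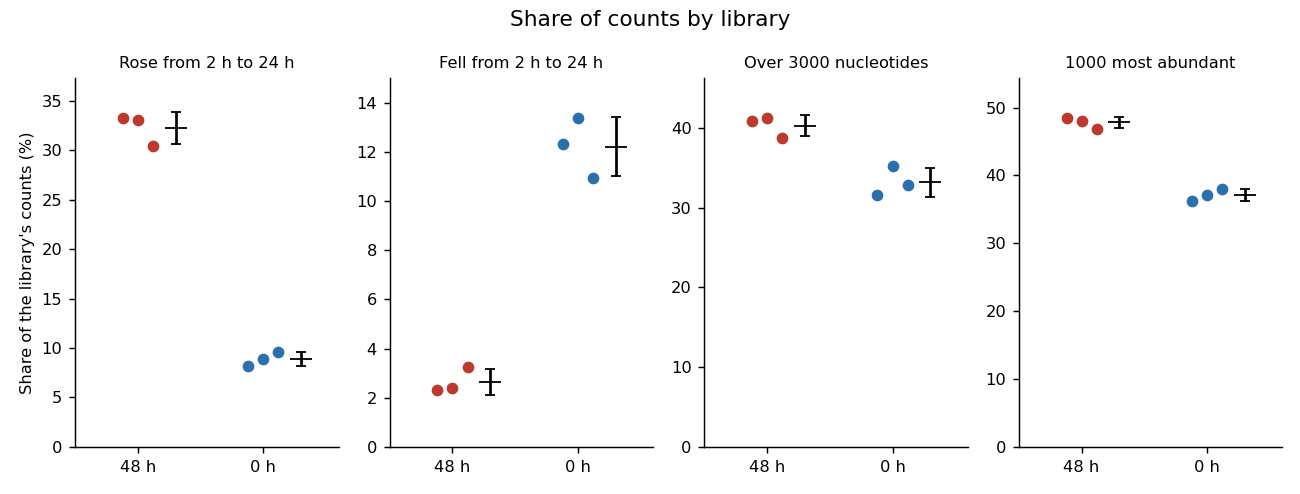
Points give the share of each library's counts, in percent, held by features that rose or fell from 2 h to 24 h, by features over 3000 nucleotides and by the top 1000 features, in the 48 h libraries (red) and the 0 h libraries (blue), with the mean and SD of 3 libraries beside them. In all 4 panels the 48 h and 0 h points do not overlap.

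Length went with the direction of change. Of 5856 features over 3000 nucleotides, 1558 were called as rises (26.6%) and 766 as falls (13.1%), against 16.3% and 15.7% of all tested, though with library totals alone the same class had 961 rises and 1341 falls. Features over 1000 and up to 2000 nucleotides had more falls than rises, with 1515 rises (14.8%) and 2502 falls (24.4%) among 10248. Between them, over 2000 and up to 3000 nucleotides, 18.2% rose and 20.9% fell. Features over 500 and up to 1000 nucleotides had 16.8% rises and 14.5% falls, and those of up to 500 had 11.5% and 7.87%, so that the shortest were called least often. Of these 12401 shortest features, 8954 were under 1 CPM on average over the 12 libraries of the other times. With library totals alone the class from 1000 to 2000 had 1007 rises and 3807 falls. Relative to all features, the median log2 change was 0.43 over 3000 nucleotides and -0.25 from 1000 to 2000. It was 0.06 up to 500 nucleotides, -0.09 from 500 to 1000 and -0.01 from 2000 to 3000.

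The order of the 1000 to 2000 and the over 3000 classes was the same in other libraries and within level classes. From 2 h to 24 h, 15.2% of features over 3000 nucleotides rose and 7.77% fell, against 8.49% and 13.6% of those of 1000 to 2000. Within 10 to 100 CPM, 25.2% of features over 3000 nucleotides rose and 12.7% fell at 48 h, against 14.3% and 24.6% of those of 1000 to 2000. Over 100 CPM, 366 of 905 of the longest class rose (40.4%) and 46 fell, against 120 of 478 (25.1%) and 98 in the middle class. From 1 to 10 CPM, 19.7% of the longest class rose and 22.4% fell, against 14.1% and 26.1%. The shortest class did not keep its place between levels. From 1 to 10 CPM, 14.7% of features of up to 500 nucleotides rose and 7.55% fell. Their median relative to all features was 0.28 there, against -0.11 for the longest class. From 10 to 100 CPM, with only 56 of the shortest features, these medians were -0.49 and 0.39. Under 1 CPM the longest class held only 33 features. At 48 h the median of the longest class was above that of the middle class with each of the 6 libraries left out. A change of scaling shifts both medians alike, so the other scalings are no check of this order. These class differences were described and not tested, since features are not replicates.

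**Figure D3:**
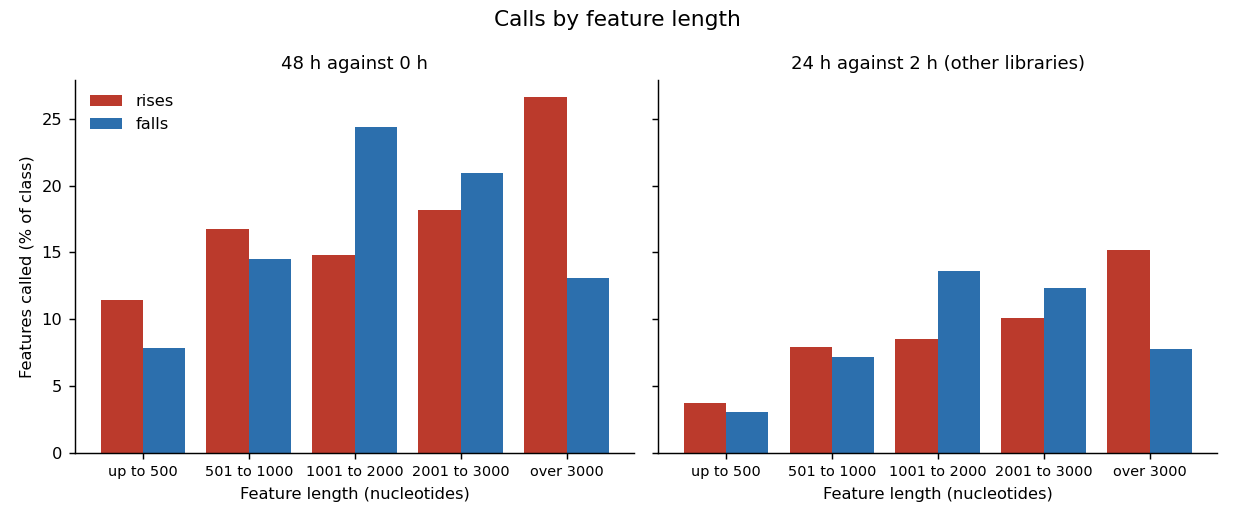
Bars give the share of tested features in each length class that were called as rises (red) or falls (blue), at 48 h against 0 h on the left and at 24 h against 2 h, in other libraries, on the right. In both panels rises outnumber falls over 3000 nucleotides and falls outnumber rises from 1000 to 2000; with library totals alone, at 48 h, falls outnumber rises in both classes.

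Whole libraries showed the same shift. The mean length of the feature a count fell on was 2929, 2939 and 2842 nucleotides in the 48 h libraries, against 2603, 2727 and 2658 in the 0 h libraries. Features over 3000 nucleotides held 40.9%, 41.3% and 38.8% of counts at 48 h, against 31.6%, 35.2% and 32.8% at 0 h. Those of 1000 to 2000 nucleotides held 23.9%, 23.9% and 26.1% at 48 h, against 29.9%, 28.0% and 28.7% at 0 h. None of these 3 measures overlapped between the groups (exact permutation p = 0.1 each, two-sided). In all 3, 48 h replicate 3 and the library labelled 0 h replicate 2 were the library of their group nearest to the other group.

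Level also went with the direction of change. With level taken as the mean over the 12 libraries of the other times, 706 of 2010 features over 100 CPM rose (35.1%) and 212 fell (10.5%). There were 2356 rises and 2388 falls from 10 to 100 CPM, 2616 and 3105 from 1 to 10 CPM, and 1710 and 1392 under 1 CPM. Relative to all features, the median log2 change was 0.71 over 100 CPM and 0.10 from 10 to 100 CPM. It was -0.053 from 1 to 10 CPM and -0.22 under 1 CPM. This order depended on where level was measured. With level taken at 0 h, 294 of 1742 features over 100 CPM rose (16.9%) and 393 fell (22.6%), while 3262 features under 1 CPM rose and 712 fell. With level taken over the 6 libraries of 2 h and 6 h, 461 of 1802 rose (25.6%) and 304 fell (16.9%). With library totals alone and level over the 12 libraries, 450 features over 100 CPM rose and 382 fell.

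Complete switching between absence and presence was rare. A feature was counted as on at 48 h only when it had no count in the 3 libraries of 0 h and at least 1 CPM in each library of 48 h. By this rule 120 features were on at 48 h only and 25 were off at 48 h only, 0.224% and 0.0467% of the 53545 features. By comparison 20903 features (39.0%) had at least 1 CPM in every library of both times, and 274 had no count in any of the 6. The 120 features were low, with a median of 2.77 CPM at 48 h (1.22 to 33.8). That median is at least 64.4-fold higher than a floor of 3 counts over the 0 h group, a floor that covers counting error only. The 25 had a median of 2.40 CPM at 0 h (1.17 to 97.8), at least 46.1-fold above the same floor over the 48 h group. Of the 120, 97 were up to 1000 nucleotides long, and of the 25, 20 were, against 57.1% of all features. Every one of these features was called, which follows from how they were picked.

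The libraries of 2 h and 24 h give the state of these features at other times. Of the 120 features on at 48 h only, 58 had at least 1 CPM in each 24 h library and 4 had no count at 24 h. At 2 h 0 of the 120 reached 1 CPM in each library, while 19 had no count at all, and their median level was 0.130 CPM at 2 h and 1.75 CPM at 24 h. Over all 53545 features, 46.8% had at least 1 CPM in each 24 h library and 47.3% in each 2 h library, and 4.52% had no count at 24 h and 3.52% at 2 h. Of the 25 features off at 48 h only, 14 had at least 1 CPM in each 2 h library, 0 had it in each 24 h library, 3 had no count at 24 h and 0 had no count at 2 h. Levels differed between replicates: in 36 of the 120 and in 6 of the 25 the highest library of the group with counts was over 3 times the lowest. A looser rule of at most 3 counts over the silent group gave 217 and 66 features, and a stricter one of at least 10 CPM gave 3 and 1. With any 1 of the 6 libraries left out, the on features numbered 135 to 298 and the off features 36 to 97; both lists were longest without 48 h replicate 3.

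The last digit of the feature ID, from 1 to 9, went with the direction of change more closely than length or level. Of 4702 tested features that end in 7, 2155 rose (45.8%) and 124 fell (2.64%). Of 6099 that end in 1, 172 rose (2.82%) and 2147 fell (35.2%). Features ending in 3 also fell more than they rose, with 206 rises and 1252 falls, and so did those ending in 9 (307 and 1152) and in 2 (434 and 1086). Rises outnumbered falls among features ending in 4 (750 and 392), in 5 (950 and 296), in 6 (1600 and 245) and in 8 (814 and 403). With library totals alone, falls outnumbered rises for digits 4 (437 and 682) and 8 (532 and 730) as well. Relative to all features the median log2 change ran from -1.10 for digit 1 to 1.59 for digit 7.

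What the digit stands for is not given in the sources used here. It went with libraries as well as with direction. CPM was here taken on library totals without TMM, which sets 48 h libraries lower and 0 h libraries higher than TMM does. Among features of at least 1 CPM on average, 34.9% of those ending in 7 had their highest value in a 48 h library, against 10.7% of all features. Of those ending in 1, 56.9% were highest in a 0 h library, against 28.9% of all. For every digit, a pair of libraries held the highest value of 23.1% to 48.3% of its features. For digit 7 that pair was 48 h replicates 1 and 2 (27.3%), and for digit 1 it was 0 h replicates 1 and 2 (48.3%). Some pair always comes first, and the share of the top pair over all features was not computed. These pair shares therefore stand without a background value. Whether the digit marks the libraries a feature was assembled from was not tested. Among the 120 features on at 48 h only, 54 ended in 7, 26 in 6, 17 in 8, 15 in 5 and 0 in 1 or 3. Among the 25 off at 48 h only, 13 ended in 1, 5 in 3 and 0 in 7. Over all 53545 features, 11.3% ended in 7, 10.5% in 6, 9.65% in 8, 8.09% in 5, 12.3% in 1 and 14.2% in 3. In the other libraries, from 2 h to 24 h, features ending in 7 had 978 rises and 88 falls, and those ending in 1 had 133 rises and 1031 falls. The part of the digit in the counts of rises and falls was not tested.

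Values within digits bear on the length classes. In each of the 9 digits the median log2 change of features over 3000 nucleotides was above that of features of 1000 to 2000, by 0.27 to 0.77. The same held in 9 of 9 digits from 2 h to 24 h, by 0.11 to 0.47. The difference between features over 100 CPM and those of 1 to 10 CPM was above 0 in 7 of 9 digits and ran from -0.50 to 1.53. Among the 24789 tested features that end in 2, 4, 5, 6 or 9, which were picked with the values in view, there were 4041 rises and 3171 falls.

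**Figure D4:**
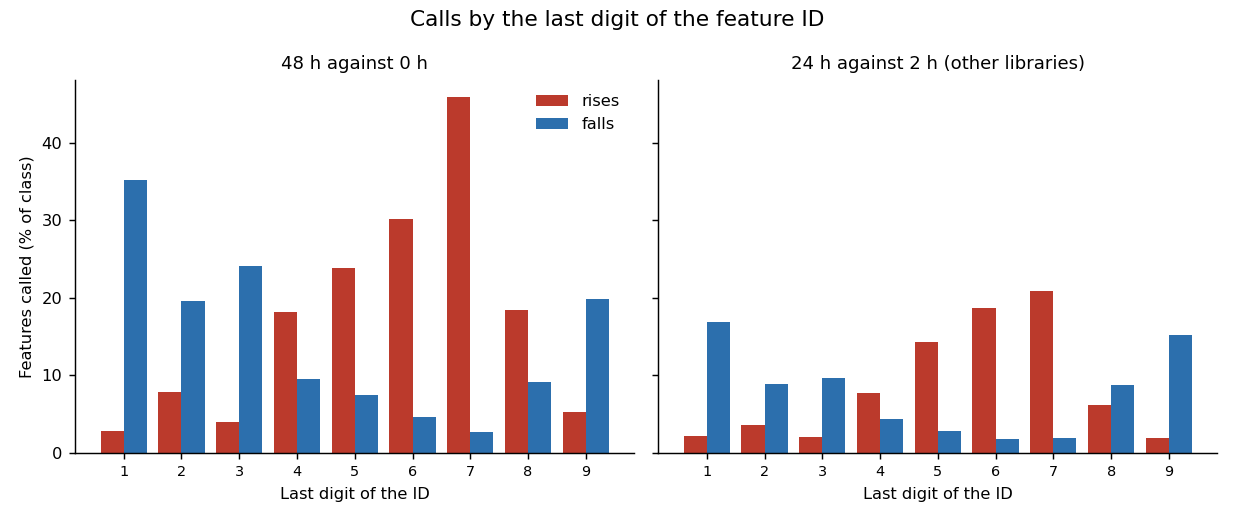
Bars give the share of tested features that were called as rises (red) or falls (blue) for each last digit of the feature ID, at 48 h against 0 h on the left and at 24 h against 2 h on the right. In the left panel rises are most frequent for digit 7 (45.8%) and falls for digit 1 (35.2%).

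The features that gained and lost the most RNA per length were abundant ones, and 4 are named by ID. They are the called features without overlap between the groups that had the largest gains and losses in mean level per kilobase, in TMM-scaled CPM per kilobase. The levels chose them, so the fold changes describe them.

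TRINITY_DN16268_c0_g2_i2_5, of 1070 nucleotides, had the largest gain. Its level was 8498, 6636 and 1941 CPM per kilobase in the 48 h libraries, against 20.8, 1083 and 23.5 in the 0 h libraries. At 0 h the library labelled replicate 2 was far above the others, and at 48 h replicate 3 was far below. Its log2 change was 3.92 (SE 1.34, adjusted p = 0.030, edgeR), and 8.02 without the library labelled 0 h replicate 2 (adjusted p = 0.00028). The call was lost with only the 6 libraries compared (adjusted p = 0.096), without 48 h replicate 1 or 2 (0.074 and 0.059) and without 0 h replicate 1 or 3 (0.077 and 0.075). In the contrast of 24 h with 2 h the value was 2.55 (SE 1.26, adjusted p = 0.17).

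TRINITY_DN12565_c0_g2_i1_4, of 1379 nucleotides, stood at 5275, 5261 and 7290 CPM per kilobase in the 48 h libraries, against 689, 220 and 1085 in the 0 h libraries. Every 48 h library was more than 4 times the highest 0 h library. Its log2 change was 3.16 (SE 0.58, adjusted p = 0.00057, edgeR), and in the other libraries, from 2 h to 24 h, it was 2.49 (SE 0.57, adjusted p = 0.0057). By mean level per length it ranked 2nd of all features at 48 h, against 23rd at 0 h.

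TRINITY_DN14476_c0_g2_i2_4, of 979 nucleotides, lost the most. It stood at 610, 605 and 532 CPM per kilobase in the 48 h libraries, against 4380, 7014 and 3126 in the 0 h libraries. The 48 h libraries were close to each other and the 0 h libraries ranged over more than 2-fold. Its log2 change was -3.06 (SE 0.51, adjusted p = 0.00026, edgeR), and it ranked 79th by level per length at 48 h, against 2nd at 0 h. The libraries of 12 h held 4037, 5097 and 6915 CPM per kilobase, within the range at 0 h, and those of 24 h held 1318, 2193 and 869, all below it. From 2 h to 24 h its change of -0.99 did not pass (SE 0.48, adjusted p = 0.15), and its 2 h libraries ranged from 1110 to 4592.

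TRINITY_DN11610_c0_g2_i1_6, of 1373 nucleotides, stood at 414, 450 and 614 CPM per kilobase in the 48 h libraries, against 1048, 1392 and 1604 in the 0 h libraries. All 3 libraries of 48 h were below all 3 of 0 h, with a log2 change of -1.45 (SE 0.28, adjusted p = 0.00092, edgeR). From 2 h to 24 h its change was -0.65 (SE 0.28, adjusted p = 0.11). For all 4 features the difference between 48 h and 24 h did not pass the test (adjusted p = 0.19 to 0.98, edgeR).

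**Figure D5:**
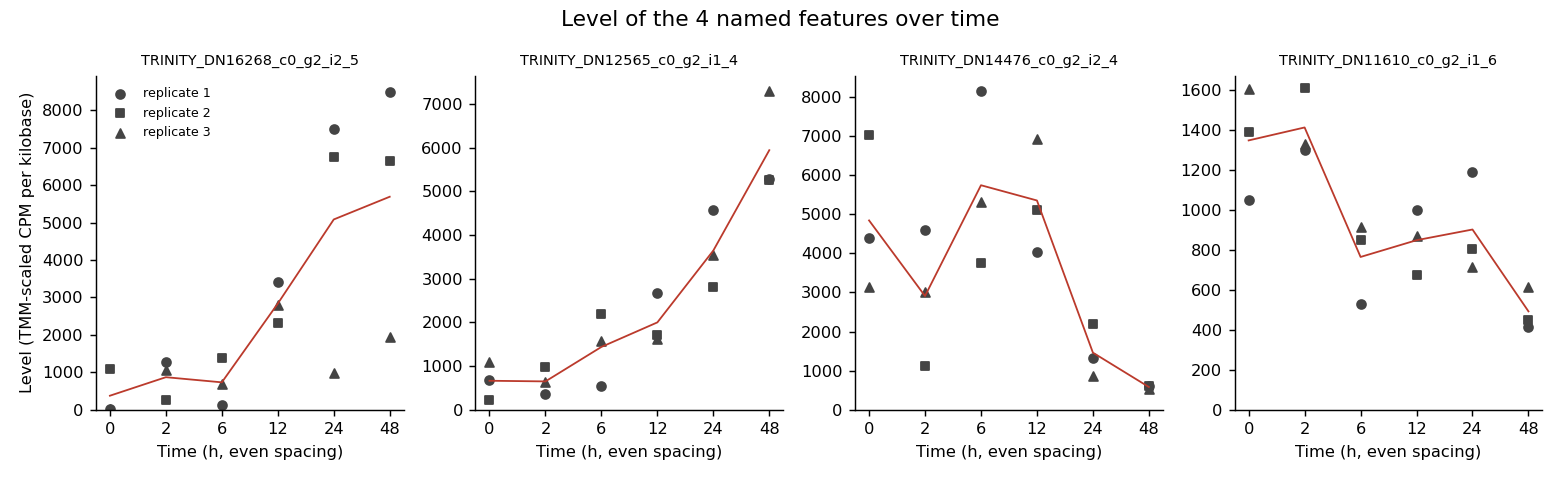
Points give the level of the 4 named features in each of the 18 libraries, in TMM-scaled CPM per kilobase, with a marker for each replicate number and a line through the means of 3 libraries; times are evenly spaced. The first pair of features stood higher in all 48 h libraries than in all 0 h libraries and the last pair lower, and the first feature shows the wide spread at 0 h (20.8 to 1083) and 48 h (1941 to 8498).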

How the data were processed

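Leaf RNA was sequenced in 18 libraries, grouped by titles and labelled times. No per-sample column was left out. The authors' deposited estimated counts (89.6% not whole) were rounded. The authors' deposited FPKM values come from the same counts, and count over FPKM gave each feature's length, up to a common factor taken as the one that made lengths whole within 0.1 nucleotides. IDs have the form that the Trinity assembler writes, per the file headers; the sources used here do not state the aligner or counter. Annotation columns were not used as names.

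Features were filtered with filterByExpr and scaled by TMM. One model of the 6 times, over all 18 libraries, was tested with the quasi-likelihood F-test of edgeR 4.0.16 in R 4.3.3, with Benjamini-Hochberg adjustment over the 45222 tested features. The common dispersion was 0.244, and an SE is the log2 change over the square root of F. CPM values were scaled by TMM except where library totals are named, and log2 CPM had a prior count of 2. Intervals and floors cover counting error only. Within the 48 h and within the 0 h group, a chi-square test of counts between libraries gave at least 19.9 for each degree of freedom, so none of these 6 repeated another of its group. Library measures were compared by exact permutation tests (Python 3.11.15, scipy 1.17.1).

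Named features were the 2 called rises and 2 called falls without overlap with the largest gain or loss in mean CPM per kilobase. Alternatives were other scalings, the DESeq2 1.42.0 test, limma 3.58.1 on deposited FPKM after log2 with a pseudocount of 1 or 0.1 (FPKM filter of 1 in 3 libraries), other filters and fold thresholds, fewer libraries and a replicate block. The comparison, classes and naming rule were chosen with earlier results of these data known.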

Additional observations from a re-analysis of the deposited data

How the results depend on the processing

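Rises at 48 h numbered 7388 and falls 7097. Of the scalings tried, library totals alone gave 4891 rises and 11310 falls and moved the median log2 change of all features to -0.61, and upper-quartile factors moved it to 0.016. With library totals alone, rises and falls were 450 and 382 over 100 CPM, 1405 and 4012 from 10 to 100 CPM, and 1694 and 4719 from 1 to 10 CPM, with 2197 falls under 1 CPM. By length they were 961 and 1341 over 3000 nucleotides, 735 and 2210 from 2000 to 3000, and 1007 and 3807 from 1000 to 2000. There were also 2361 falls from 500 to 1000 and 1591 falls up to 500 nucleotides. FPKM in limma gave 4639 rises and 10590 falls with a pseudocount of 1, and 5448 rises and 11931 falls with 0.1; test, filter and scaling all differ there. A filter of 10 CPM in 3 libraries left 7360 calls (3369 rises, 3991 falls) because fewer features were tested, 17294 against 45222. The share called was above the 32.0% of the main fit. A log2 change of at least 2 left 8710 (4530 and 4180). The 5 digits 2, 4, 5, 6 and 9 alone had 7212 (4041 and 3171) among 24789 tested.

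With level taken at 0 h, rises and falls were 294 and 393 over 100 CPM and 3262 and 712 under 1 CPM. The medians relative to all features were then 0.049 over 100 CPM, -0.088 from 10 to 100, -0.34 from 1 to 10 and, under 1 CPM, 0.64. With level over 2 h and 6 h, 461 features over 100 CPM rose, and the same medians were, from the highest class to the lowest, 0.38, 0.017, -0.13 and 0.12. Looser silence gave 217 features on and 66 off, and at least 10 CPM gave 3 and 1. The share of rises also called from 2 h to 24 h was 37.0% with 24 h against 6 h in its place, and 30.3% when 0 h replicate 2 and 2 h replicate 2, as labelled, were left out. For falls these shares were 43.9% and 33.3%. Where no cause is stated, the cause was not tested.

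With each library left out in turn, calls ranged from 11782 to 15152 and the median of all features from -0.20 (without 48 h replicate 3) to -0.033 (without 0 h replicate 2). Features on at 48 h ranged from 135 to 298 and off from 36 to 97, longer lists because fewer libraries had to meet the rule; without 48 h replicate 1 they were 209 and 41, without 0 h replicate 2 244 and 52, and without 48 h replicate 3 298 and 97. Features off also numbered 51 without 48 h replicate 2 and 56 without 0 h replicate 3. Falls ranged from 883 to 1526 under 1 CPM and from 642 to 1043 up to 500 nucleotides, each lowest without 48 h replicate 2. Relative medians ranged from 0.40 to 0.55 over 3000 nucleotides, -0.049 to 0.063 from 2000 to 3000, -0.30 to -0.20 from 1000 to 2000, -0.21 to -0.037 from 500 to 1000 and -0.036 to 0.10 up to 500. By level they ranged from 0.65 to 0.86 over 100 CPM, 0.056 to 0.20 from 10 to 100, -0.090 to -0.0066 from 1 to 10 and -0.45 to -0.076 under 1 CPM.

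The replicate number was not used to pair samples in the main fit. Deviations of same-numbered 48 h and 0 h libraries correlated at -0.08, 0.06 and 0.20. Over all times, same-numbered pairs ran from -0.37 to 0.20. Pairs of unlike number are not given beside these, so the values cannot exclude a pairing. With the replicate number as a block there were 13725 calls (7061 rises, 6664 falls), and 37.6% of rises were also called from 2 h to 24 h. A planned test between features of the same Trinity gene, and planned counts summed for each Trinity gene, were not run, because each ID without its isoform number names a single feature.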
